A study of Rattus norvegicus with 2 samples.

Results

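The genes described here were 10 parts of the receptor system that senses microbial products and molecules released from damaged cells: the Toll-like receptor genes Tlr1, Tlr2, Tlr3, Tlr4, Tlr5, Tlr6, Tlr7 and Tlr9, the co-receptor gene Cd14 and the adaptor gene Myd88. They were found by gene symbol in a table of 32662 rat genes, which had a row for 9 of the 10. Tlr1 had no row, so its level was not analysed here. The table came from RNA sequencing of the retina of Long-Evans rats aged 2 months. The control library (CTRL) was from a retina that went through a sham procedure, and the other library (IR12) was from a retina collected 12 h after reperfusion in ischemia-reperfusion (IR) injury, in which the blood supply is blocked and then restored. Each condition had 1 library, so no difference below has a replicate check and no p-value is given. The question was how the level of each gene in IR12 compared with that in CTRL.

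Toll-like receptors span a membrane and bind their ligands with leucine-rich repeats. Tlr1, Tlr2, Tlr4, Tlr5 and Tlr6 act at the cell surface, where Tlr2 pairs with Tlr1 or Tlr6 to bind lipopeptides, Tlr4 responds to lipopolysaccharide and Tlr5 to flagellin, while Tlr3, Tlr7 and Tlr9 sense nucleic acids in endosomes. Cd14 binds lipopolysaccharide and passes it towards Tlr4. Every Toll-like receptor except Tlr3 signals through Myd88, which recruits kinases of the Irak family and leads to activation of NF-kB. In the retina these receptors are known in microglia, the resident macrophages, and some are known in other cells such as Mueller glia.

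Levels were given as FPKM, fragments per kilobase of transcript per 1000000 mapped reads, a scale on which genes of different length can be compared. Differences were log2 ratios of (FPKM + 1), IR12 over CTRL, and the added 1 makes the ratio of a low gene smaller than the ratio of its FPKM. A gene was counted as higher or lower at 2-fold or more on that scale, with FPKM of at least 1 in at least 1 library. Among 13599 genes that reached this minimum, 892 (6.56%) were higher in IR12 and 832 (6.12%) were lower. Of the 9 genes with a row, 3 were higher (Myd88, Tlr2 and Cd14) and 0 were lower. Of these 9, 5 reached the minimum (Tlr2, Tlr3, Tlr4, Cd14 and Myd88). Tlr2 and Cd14 reached it through IR12 alone and so could only have higher FPKM there. Tlr3 and Tlr4 reached it through CTRL alone and so could only have lower FPKM in IR12. The minimum fixed the direction of these genes, though not a 2-fold difference. The count of 3 is therefore a description beside the 6.56% of all genes. The median log2 ratio over the 9 genes was 0.29, and that over all 13599 genes was 0.02.

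**Figure D1:**
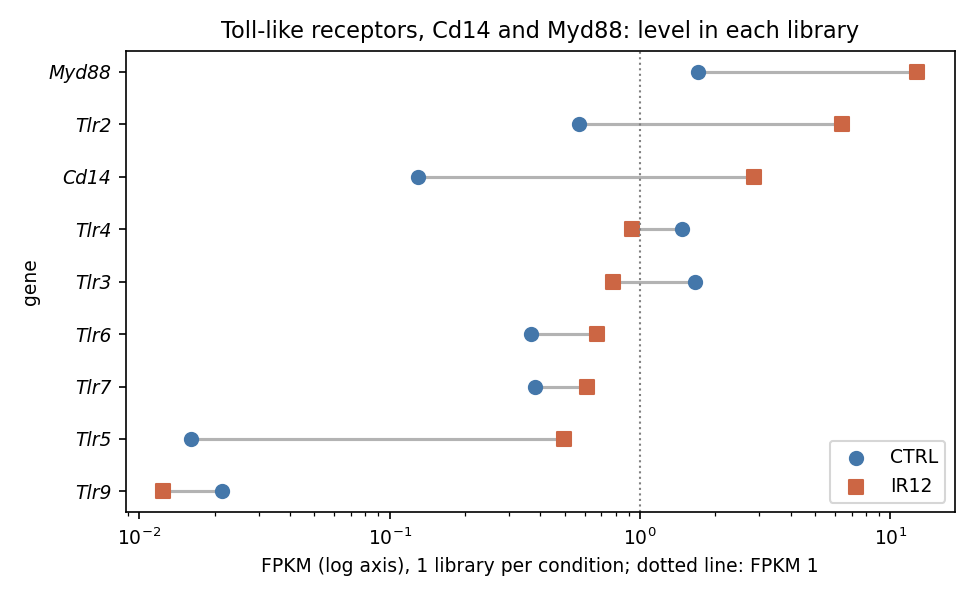
Level of each gene in the CTRL library (circles) and the IR12 library (squares), as FPKM on a log axis, with a dotted line at FPKM 1. Myd88, Tlr2 and Cd14 lie to the right in IR12, with 12.8, 6.39 and 2.85 FPKM, while Tlr3 and Tlr4 cross to the left of the line.

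The adaptor Myd88 (ENSRNOG00000013634, chr8:128022473-128026841 on the rn6 build) had 1.70 FPKM in CTRL and 12.8 FPKM in IR12. Its log2 ratio of 2.35 had the greatest size among the 9 genes with the added 1. With 0.1 added in its place, Myd88 was at 2.84, below Tlr2 at 3.28 and Cd14 at 3.68. No other gene of the 9 reached FPKM 1 in both CTRL and IR12. Among the 13599 genes, its level stood at the 11.4th percentile in CTRL and at the 49.7th percentile in IR12. The 3 genes nearest to Myd88 in log2(FPKM + 1) over the 2 libraries, by Euclidean distance, were Eif4ebp1 (distance 0.086), Cd74 (0.093) and Atf5 (0.172). Eif4ebp1, a repressor of translation initiation, went from 1.75 to 12.0 FPKM. Cd74, the invariant chain of MHC class II, went from 1.87 to 13.0 FPKM, and Atf5, a stress-related transcription factor, from 1.65 to 11.3 FPKM.

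Tlr2 (ENSRNOG00000009822, chr2:182840727-182846061) had 0.570 FPKM in CTRL and 6.39 FPKM in IR12, a log2 ratio of 2.23. In CTRL it made up 12.7% of the summed FPKM of the 7 receptors of interest with a row, and in IR12 it made up 64.5%. This receptor sum was 4.49 FPKM in CTRL and 9.90 FPKM in IR12. It leaves out Tlr8, Tlr10, Tlr11, Tlr12 and Tlr13, which summed to 0.746 and 2.55 FPKM, so the shares depend on that choice. Tlr2 was the most abundant of the 7 receptors in IR12 and ranked below Tlr3 and Tlr4 in CTRL.

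Cd14 (ENSRNOG00000017819, chr18:29560365-29562153) had 0.130 FPKM in CTRL and 2.85 FPKM in IR12, a log2 ratio of 1.77. The CTRL value rested on few reads. Low FPKM values moved in steps of single reads, and 1 read was worth 1.71 times as much FPKM in CTRL as in IR12. On those steps the Cd14 values matched 3 reads in CTRL and 112 in IR12, if whole reads were counted on 1 transcript. The ratio of the FPKM values was 21.9, with a 95% exact interval (Clopper-Pearson) of 7.29 to 108 that covers counting error only. The Tlr2 values matched 7 and 134 reads or a common multiple of them, and at the smallest numbers the ratio of 11.2 had an interval of 5.29 to 28.4.

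Promoter sequence is shown for the 3 higher genes because they moved in the same direction. The table of RefSeq promoters (GRCr8 build) matched all 10 genes, and the 250 bases before each start were searched on both strands for the PU.1 core GAGGAA, the AP-1 motif TGANTCA, the NF-kB consensus and the ISRE core GAAANNGAA. PU.1 is a factor of the myeloid lineage, and the ISRE is bound by interferon regulatory factors. Capitals mark the matches in the sequences, which run 5′ to 3′ towards the gene.
Tlr2, chr2:171504558-171504807, minus strand: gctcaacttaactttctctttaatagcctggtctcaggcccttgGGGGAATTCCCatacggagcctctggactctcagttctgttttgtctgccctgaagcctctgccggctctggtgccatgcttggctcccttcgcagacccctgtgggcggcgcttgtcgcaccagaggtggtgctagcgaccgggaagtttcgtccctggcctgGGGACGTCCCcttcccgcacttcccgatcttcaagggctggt
Cd14, chr18:28611159-28611408, minus strand: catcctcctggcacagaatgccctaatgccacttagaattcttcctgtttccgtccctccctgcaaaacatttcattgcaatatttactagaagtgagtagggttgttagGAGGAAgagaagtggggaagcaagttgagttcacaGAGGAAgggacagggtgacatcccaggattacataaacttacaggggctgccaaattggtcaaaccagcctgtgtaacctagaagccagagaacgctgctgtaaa
Myd88, chr8:127956231-127956480, minus strand: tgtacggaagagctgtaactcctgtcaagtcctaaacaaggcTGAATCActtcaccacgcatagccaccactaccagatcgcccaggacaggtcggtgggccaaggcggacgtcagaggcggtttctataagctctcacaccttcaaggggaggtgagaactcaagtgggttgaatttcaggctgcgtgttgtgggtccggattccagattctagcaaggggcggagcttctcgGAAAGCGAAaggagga
The Tlr2 window held 3 NF-kB matches, of which a pair overlapped, beginning 206 and 205 bases before the start, and the other began 42 bases before it. The Cd14 window held the PU.1 core at 140 and 105 bases. The Myd88 window held the AP-1 motif at 208 bases and the ISRE core at 16 bases. Each of these motifs is common: of 33469 promoters, 23.3% held the PU.1 core, 6.3% the AP-1 motif, 6.3% the NF-kB consensus and 8.1% the ISRE core. The PU.1 core was in 6 of the 10 windows, those of Tlr3, Tlr4, Tlr6, Tlr7, Tlr9 and Cd14, so it was not shared by the 3 higher genes. The AP-1 motif was in 2 of the 10 windows, those of Tlr9 and Myd88, the NF-kB consensus in 1 and the ISRE core in 1. A match shows only that the letters are there.

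Tlr3 and Tlr4 were the most abundant receptors in CTRL and had lower FPKM in IR12. With the added 1, neither passed 2-fold, although the ratio of the FPKM values alone, CTRL over IR12, was 2.12 for Tlr3 and 1.57 for Tlr4. Tlr3 (ENSRNOG00000021726, chr16:50016857-50031214), the sensor of double-stranded RNA that signals without Myd88, had 1.66 FPKM in CTRL and 0.783 FPKM in IR12, a log2 ratio of -0.58. Tlr4 (ENSRNOG00000010522, chr5:82587420-82601052) had 1.47 FPKM in CTRL and 0.932 FPKM in IR12, a log2 ratio of -0.35. Together they made up 69.8% of the receptor sum in CTRL and 17.3% in IR12.

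The other 4 receptors stayed under FPKM 1 in both libraries. Tlr5 (ENSRNOG00000022067, chr13:101381510-101385764) had 0.0160 FPKM in CTRL and 0.497 FPKM in IR12. These values matched 1 read and 53 reads, a ratio of 31.0 with an interval of 5.33 to 1249, although the log2 ratio with the added 1 was 0.56. Tlr6 (ENSRNOG00000002161, chr14:45024351-45046446), a partner of Tlr2, had 0.366 FPKM in CTRL and 0.671 FPKM in IR12. Tlr1, Tlr6 and Tlr10 are similar in sequence and are neighbours in the RefSeq annotation of GRCr8, so the Tlr6 and Tlr10 values are uncertain, and whether they hold reads of Tlr1 was not tested. Tlr7 (ENSRNOG00000004249, chrX:28486869-28512957), which senses single-stranded RNA, had 0.382 FPKM in CTRL and 0.615 FPKM in IR12. Tlr9 (ENSRNOG00000048161, chr8:114916122-114920171), which senses CpG DNA, had 0.0213 FPKM in CTRL and 0.0125 FPKM in IR12. Its values matched 1 read in each library, and the interval of the ratio, 0.00746 to 46.0, left no direction detectable at this depth.

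By level, the order in CTRL was Myd88, Tlr3, Tlr4, Tlr2, Tlr7, Tlr6, Cd14, Tlr9 and Tlr5. In IR12 it was Myd88, Tlr2, Cd14, Tlr4, Tlr3, Tlr6, Tlr7, Tlr5 and Tlr9. With 1 library per condition, which neighbours in these orders differ beyond their spread could not be determined.

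**Figure D2:**
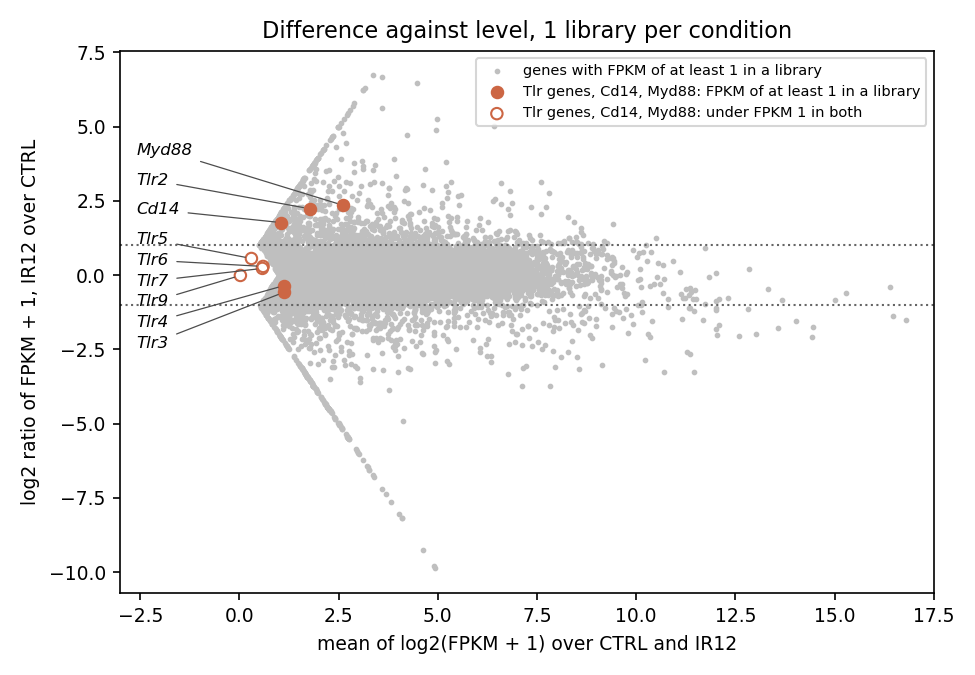
Log2 ratio of (FPKM + 1), IR12 over CTRL, against the mean of log2(FPKM + 1), with dotted lines at 2-fold. Grey points are the 13599 genes that reached FPKM 1 in a library, filled points the 5 genes of interest that reached this minimum and open points the 4 that did not; Myd88, Tlr2 and Cd14 lie above the upper line.

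The scale of the values affects the smaller differences. Small non-coding RNAs made up 67.9% of the FPKM sum in CTRL and 46.0% in IR12. Rescaling both libraries to the same sum (the TPM scale) moved the median log2 ratio of the 13599 genes from 0.02 to 0.59, and the share of called genes that were higher from 51.7% to 86.6%. Relative to that median, Myd88 was at 2.2, Tlr2 at 1.94 and Cd14 at 1.34. Without that subtraction, Tlr3 was at -0.22 on the TPM scale, against -0.58 at the deposited scale, and Tlr4 was nearly equal in both libraries. Relative to the median, Tlr3 was at -0.81 and Tlr4 at -0.60. Rescaling multiplies all genes of a library alike, so these positions differ from those at the deposited scale only through the added 1, which weighs most on low genes.

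Among the other Toll-like receptor genes, 0 of 5 passed the 2-fold rule, but 4 of them were under the minimum and could not pass. Tlr13, the most abundant of them and a sensor of bacterial ribosomal RNA, had 0.351 FPKM in CTRL and 1.46 FPKM in IR12, a log2 ratio of 0.86, and it passed 2-fold on the TPM scale. Tlr10 had 0.212 and 0.885 FPKM. Among co-receptors and genes for ligand transfer and trafficking, 0 of 7 with a row passed, and 3 reached the minimum. The most abundant was Hsp90b1, a chaperone of the receptors, with 294 FPKM in CTRL and 450 FPKM in IR12, and it passed on the TPM scale with a log2 ratio of 1.26. Of the adaptors other than Myd88, 0 of 3 with a row passed, 2 reached the minimum, and Sarm1 was the most abundant with 6.80 and 7.47 FPKM. Tirap, the adaptor that links Tlr2 and Tlr4 to Myd88, is named after its values were seen because it passed on the TPM scale, with 1.53 FPKM in CTRL and 3.04 FPKM in IR12.

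The counts of this and the following lists stand beside the shares over all 13599 genes, 6.56% higher and 6.12% lower. A count of 1 higher gene in a list is a description only. Among the kinases and ubiquitin ligases of these receptors, some act with Ticam1 rather than Myd88. Of these 15 genes, 13 reached the minimum, 1 was higher and 0 were lower, with a median log2 ratio of 0.25. The gene was Ripk1, a kinase of inflammatory and cell death signalling, with 7.94 FPKM in CTRL and 21.8 FPKM in IR12. Tab2 was the most abundant, with 48.5 and 63.4 FPKM. Of 10 restraining regulators, of which 7 reached the minimum, 1 was higher, with a median of 0.54. That gene was Atf3, a stress-induced repressor, which went from 2.62 to 94.5 FPKM, the greatest level of its list. Tnfaip3 and Cyld, named after their values were seen, had lower FPKM in IR12, while the other 8 had higher FPKM. Tnfaip3 went from 40.9 to 31.9 FPKM and Cyld from 23.8 to 19.8 FPKM. Of 5 transcription factors, of which 4 reached the minimum, 1 was higher, with a median of 0.86. Irf7, which acts after Tlr7 and Tlr9, went from 0.513 to 6.37 FPKM, and Irf3 was the most abundant with 29.0 and 53.3 FPKM. Of 6 interleukin receptor genes that also use Myd88, 2 reached the minimum and 1 passed. This was Il1rap, which went from 11.1 to 24.5 FPKM, a log2 ratio of 1.08. It fell just short of 2-fold, at 0.98, when both libraries were brought to the same sum without small non-coding RNAs.

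Of 8 genes for proposed endogenous ligands, 2 were higher and 0 were lower, with a median of 0.53, and both were under FPKM 1 in CTRL; 7 reached the minimum. S100a9 had 0.199 FPKM in CTRL and 23.0 FPKM in IR12, and S100a8, with a listed value of 0 in CTRL, reached 12.8 FPKM in IR12. Both are also on the list of neutrophil markers. The most abundant ligand gene was Hspd1, with 124 and 212 FPKM. On the TPM scale, where 20.7% of all 13599 genes were higher and 3.21% were lower, the higher genes numbered 4 among kinases and ubiquitin ligases, 3 among restraining regulators, 4 among transcription factors, 2 among the interleukin receptors and 4 among the ligands, lists of 15, 10, 5, 6 and 8 genes.

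The median log2 ratio of the 16 inducible target genes with a row was 2.07, and it was 3.97 with a pseudocount of 0.1. Of the 16, 10 were higher and 0 were lower. Of these 10, 9 were under FPKM 1 in CTRL and reached the minimum through IR12 alone, so they could only be called higher, and the count is a description. The chemokine gene Ccl2 had 0.205 FPKM in CTRL and 121 FPKM in IR12. Cxcl1 went from 1.35 to 19.1 FPKM, and Cxcl10 from 0.139 to 11.5 FPKM. Il1b, which encodes interleukin 1 beta, had 0.109 FPKM in CTRL and 12.1 FPKM in IR12. The adhesion gene Icam1 went from 0.718 to 7.32 FPKM and the siderophore-binding protein gene Lcn2 from 0.473 to 11.8 FPKM. Ccl3, Ccl4, Cxcl2 and Il6 were listed at 0 in CTRL and had 12.1, 3.10, 3.32 and 1.76 FPKM in IR12. Tnf, Ifnb1 and Il10 were listed at 0 in both libraries. Silence of these 3 genes cannot be read from a 0 in the table, because all 37 mitochondrial genes had the same value in both libraries. These targets are shared with other pathways, and which signal acted on them was not tested.

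**Figure D3:**
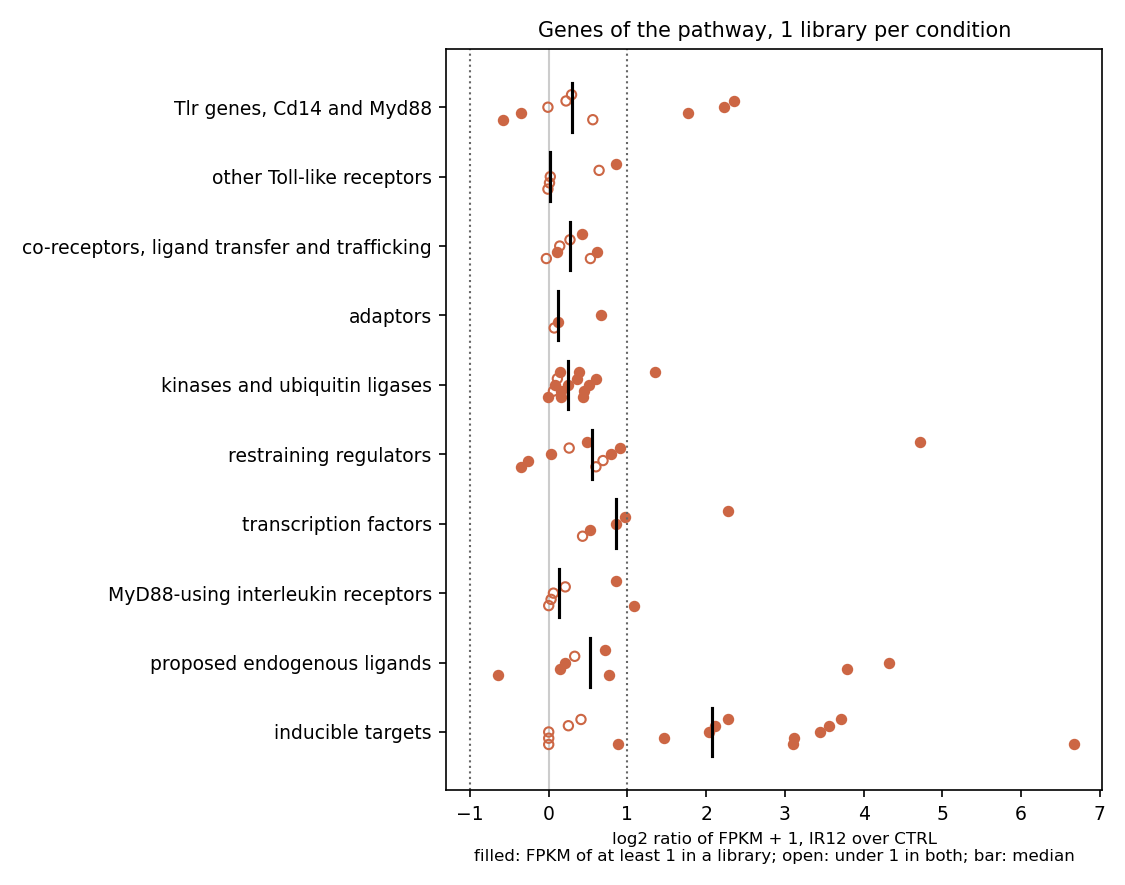
Log2 ratio of (FPKM + 1), IR12 over CTRL, for each gene of the pathway lists, with a bar at the median of each list and dotted lines at 2-fold. Filled points reached FPKM 1 in a library and open points did not. Of the lists plotted, the inducible targets have the highest median, 2.07.

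Marker genes of several cell types also differed between the libraries. Their counts stand beside the same shares over all 13599 genes, 6.56% higher and 6.12% lower. In a whole retina, fewer cells of a type and less RNA per cell cannot be told apart. The rod markers were high in both libraries, with 0 of 8 past 2-fold, a median log2 ratio of 0.02 and a sum of 15640 FPKM in CTRL and 19030 FPKM in IR12. On the TPM scale the median was 0.67, and 1 of the 8 was higher, Sag, named after its values were seen, with 2482 FPKM in CTRL and 4703 FPKM in IR12.

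Of 12 microglia markers, 0 were higher and 1 was lower, and their sum was 65.2 FPKM in CTRL and 54.0 FPKM in IR12. The lower gene was Gpr34, which went from 4.56 to 0.762 FPKM. Their median log2 ratio was -0.15, and it was 0.14 on the TPM scale. Gpr34 no longer passed with a minimum FPKM of 5, at which 655 of 10281 genes (6.37%) were higher and 624 (6.07%) were lower. On the TPM scale, 0 of the 12 were higher as well. Of the 12, 9 reached the minimum of FPKM 1, so the others could not pass. The part of microglia in the differences of Myd88, Tlr2 and Cd14 was not tested.

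Of 9 monocyte and macrophage markers, 6 reached the minimum, 5 were higher and 0 were lower. The 9 genes summed to 13.0 FPKM in CTRL and 94.4 FPKM in IR12. Of the 5, 4 were under FPKM 1 in CTRL. These 4 reached the minimum through IR12 alone, so they could only be called higher. With a minimum FPKM of 5, 2 were higher. Lyz2, the most abundant, went from 9.73 to 76.9 FPKM and Itgam from 0.693 to 5.71 FPKM. Ptprc went from 0.408 to 2.98 FPKM, Adgre1 from 0.720 to 2.74 FPKM and Plac8 from 0.612 to 3.44 FPKM. Cd163 and Mrc1, named after their values were seen, had lower FPKM in IR12 and were under FPKM 1 in both libraries. Cd163 had 0.131 FPKM in CTRL and 0.0110 FPKM in IR12 and passed as lower with a pseudocount of 0.1 and no minimum, and Mrc1 had 0.258 and 0.166 FPKM. Of 9 neutrophil markers, 3 reached the minimum, each through IR12 alone, so they could only be called higher. All 3 were higher and 0 were lower. The 9 genes summed to 0.378 FPKM in CTRL and 39.0 FPKM in IR12. Those 3, each under FPKM 1 in CTRL, were S100a9, the most abundant, S100a8 and Cxcr2, which was listed at 0 in CTRL and had 1.59 FPKM in IR12. The granule genes Mpo and Elane were listed at 0 in both libraries. Ngp, named after its values were seen, had 0.145 FPKM in CTRL and 0.127 FPKM in IR12, while 6 of the 9 had higher FPKM in IR12. Microglia are resident macrophages, so the monocyte and macrophage list does not separate them from other macrophages. Monocytes, macrophages and neutrophils are known to express Tlr2, Cd14 and Myd88, and the part of these cells in the differences of the 3 genes was not tested.

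Of 8 Mueller glia markers, 7 were lower (Aqp4, Glul, Kcnj10, Rlbp1, Dkk3, Sox9 and Slc1a3) and 0 were higher, with sums of 1566 FPKM in CTRL and 549 FPKM in IR12. Glul, the most abundant, went from 754 to 126 FPKM, and on the TPM scale Sox9 and Slc1a3 no longer passed 2-fold. Vim, named after its values were seen, went the other way, with 121 FPKM in CTRL and 221 FPKM in IR12, a log2 ratio of 0.86, and it was the 1 marker of the list that passed as higher on the TPM scale. All 6 lens markers (Cryba1, Mip, Cryaa, Crygs, Lim2 and Bfsp1) were lower, with sums of 2960 FPKM in CTRL and 354 FPKM in IR12, and Cryba1 was the most abundant with 1614 and 196 FPKM. Of 4 blood markers with a row, 2 reached the minimum. Hba-a2 was higher, from 6.77 to 17.2 FPKM, joined by Hbb on the TPM scale. Alas2 and Slc4a1, named after their values were seen, had lower FPKM in IR12 and were under FPKM 1 in both libraries. Alas2 had 0.334 FPKM in CTRL and 0.1955 FPKM in IR12, and Slc4a1 had 0.0455 and 0.0266 FPKM. The sum of the 4 blood markers, led by Hbb with 20.4 and 35.1 FPKM, was 27.6 FPKM in CTRL and 52.5 FPKM in IR12. Of 4 endothelial markers with a row 0 passed, with sums of 115 and 73.5 FPKM, led by Kdr with 108 and 66.8 FPKM. Their median log2 ratio of -0.29 became 0.22 on the TPM scale. Cdh5, named after its values were seen, went the other way, with 0.883 FPKM in CTRL and 1.63 FPKM in IR12. The other 3 endothelial markers had lower FPKM in IR12, and Tek was nearly equal, with 3.46 and 3.40 FPKM. Of 7 lymphocyte markers 0 reached FPKM 1, the sums were 0.516 and 0.80 FPKM, and Cd79a was listed at 0 in both. The part of these marker differences in the values of the Toll-like receptors, Cd14 and Myd88 was not tested.

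**Figure D4:**
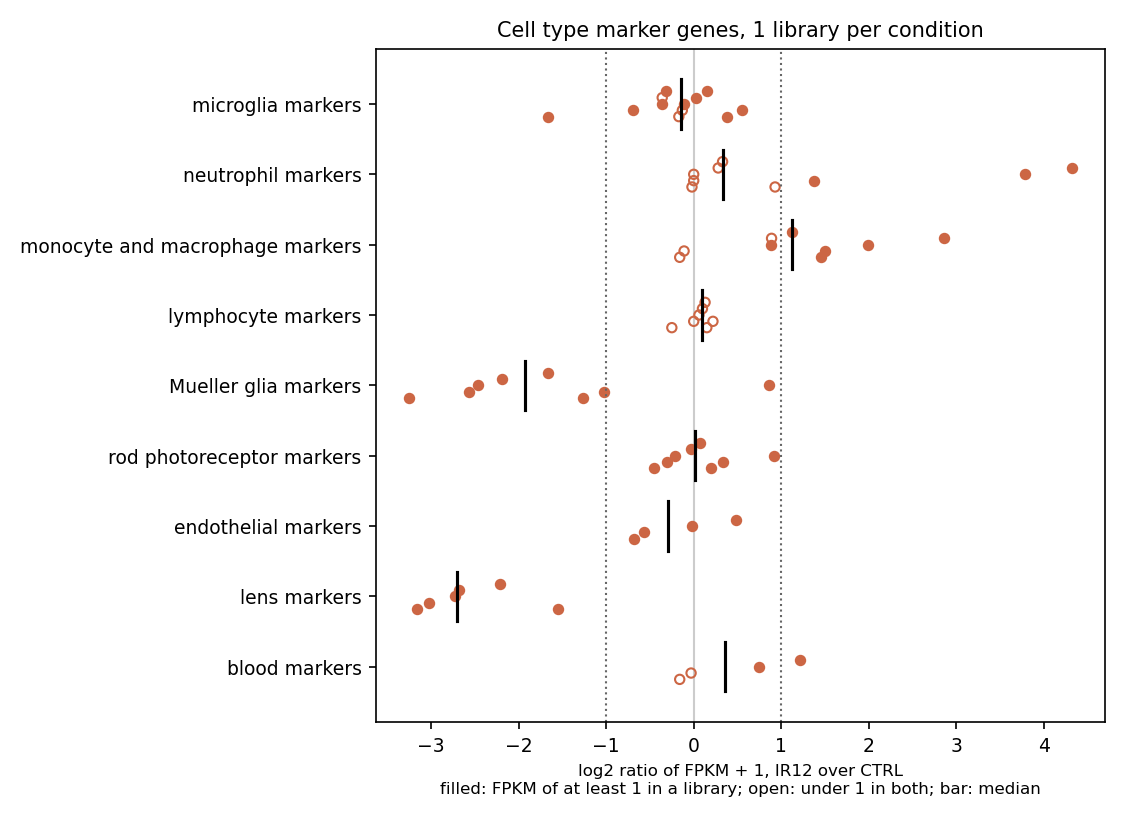
Log2 ratio of (FPKM + 1), IR12 over CTRL, for each marker gene by cell type, with a bar at the median of each list and dotted lines at 2-fold. Filled points reached FPKM 1 in a library and open points did not. Monocyte and macrophage markers lie mostly to the right, with a median of 1.12, and Mueller glia and lens markers to the left, with medians of -1.93 and -2.71.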

How the data were processed

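The deposited table held gene FPKM values that the authors made from rRNA-depleted, stranded single-end reads. The submitters' processing notes name STAR 2.5.2b, Cuffdiff 2.2.0 and the rn6 build. The labels call the kit a total RNA kit and the design text an mRNA kit. The annotation and whether counting used strand are not given in the sources used here. The paper's methods state female rats.

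Genes were matched by symbol, and 0 other genes of the table overlapped the loci of the 9 matched. The members and lists were chosen with earlier results of these data known. Genes named from each list were those past the 2-fold rule, the most abundant, and those listed at 0 in both libraries; the most abundant gene of some marker lists is not reported here, and values of Tlr10 were added after they were seen. Log2 ratios used a pseudocount of 1, and the minimum FPKM was 1 in at least 1 library. Lists were described by counts and medians, with no test.

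The relative depth was planned as the ratio of the lowest repeated FPKM among genes sharing a short locus length. Its median was 1.71 over 24 lengths up to 1000 bp, of which 17 lay within 0.1% of it (6 of 11 up to 500 bp); these length limits were set after seeing the data. Chosen after seeing the data as well, the most frequent ratio of CTRL to IR12 among low genes was taken as that of equal reads; 515 genes lay within 0.03% of it, which the choice fixes and which is no separate support. Whole-read pairs were sought with up to 20 reads in CTRL at a tolerance of 0.0006%. From 34 of 161 short loci that lay on a common 1-read curve, FPKM appeared to be scaled to about 15400000 reads in CTRL and 26300000 in IR12; these are scaling totals, and a size factor applied by the authors' software cannot be told apart from depth. The read totals in the paper are larger and differ by a smaller ratio, so 1.71 is the ratio of what 1 read is worth, not that of the reads sequenced. Intervals were computed on the share of reads and converted with that ratio.

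Alternatives were a pseudocount of 0.1, 3 rescalings of FPKM, a minimum FPKM of 5 and no minimum; a pseudocount of 0.1 with no minimum was added after seeing the data. The software was Python 3.11.15 with pandas 2.3.3 and numpy 2.4.6, intervals came from scipy 1.17.1 and plots from matplotlib 3.10.9; the scripts were tested on simulated data. Protein sequences were not used here.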

Additional observations from a re-analysis of the deposited data

How the results depend on the processing

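Myd88 and Tlr2 were at least 2-fold higher under all 7 alternatives, and Cd14 under all except the minimum FPKM of 5, which it does not reach. The count of higher genes of the 9 was 2 there, 4 with a pseudocount of 0.1 and no minimum (an alternative chosen after seeing the data, which adds Tlr5), and 3 otherwise, and 0 were lower under each alternative. The log2 ratio ranged from 2.26 to 2.84 for Myd88, 2.15 to 3.28 for Tlr2, 1.69 to 3.68 for Cd14 and 0.53 to 2.36 for Tlr5. Over all genes, the TPM scale gave 2817 higher and 436 lower, against 892 and 832; the median gene moved with the scale by construction. A pseudocount of 0.1 with no minimum gave 2076 higher and 1787 lower, with more low genes counted. With no replicates, a value was taken as moved when it differed by 1.5 times or more (0.58 in log2), and a count when it differed by more than 1.5 times. Of 833 alternative values, 113 moved in that sense and 0 called values changed sign. With a pseudocount of 0.1, the median log2 ratio moved from 2.07 to 3.97 for the inducible targets. It moved from 1.12 to 2.31 for the monocyte and macrophage markers, and from 0.33 to 1.83 for the neutrophil markers. For the lymphocyte markers it moved from 0.1 to 0.79. Among the named genes of the lists, Cxcl2, Ccl4, Il6, Gpr34, Cxcr2, Ptprc, Adgre1, Plac8 and Sox9 no longer passed with a minimum FPKM of 5, Sox9 and Slc1a3 on the TPM scale, and Il1rap at a common sum without small non-coding RNAs. With a pseudocount of 0.1 and no minimum, the list counts that differed by more than 1.5 times from those reported were, for higher genes, 2 other Toll-like receptors, 2 co-receptors, 2 kinases, 4 restraining regulators, 2 transcription factors, 3 interleukin receptors, 6 neutrophil markers and 1 lymphocyte marker, and, for lower genes, 2 microglia markers and 1 monocyte and macrophage marker. Depth limits Tlr5, Tlr9 and Cd14, whose CTRL values rest on 1 to 3 reads, and no alternative stands in for a second library.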
